A study of Mus musculus with 65 samples.

Results

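The genes described here are 10 members of the JNK pathway among the 55292 genes counted: the kinases Mapk8, Mapk9 and Mapk10, the kinase kinases Map2k4 and Map2k7, the scaffolds Mapk8ip1, Mapk8ip2 and Mapk8ip3, and the upstream kinases Map3k5 and Map3k12. They were chosen by name with the genotype difference of Mapk10 already known, so all member ratios below are descriptions. All 10 symbols were found in the deposited table. Transcripts were counted in 65 single outer hair cells (OHCs), the sound-amplifying cells of the mammalian cochlea, at postnatal day 10. The 17 Casz1 CKO cells came from mice carrying Atoh1Cre/+ and Casz1flox/flox in addition to Slc26a5FlpO/+ and Rosa26FSF-H2BEGFP/+, and the 48 WT cells came from mice with only the last pair of alleles. Both groups thus carried FlpO under control of Slc26a5, the prestin gene, and a nuclear green reporter by which cells were picked by hand. Cre was present in the CKO mice only, and the reporter selects cells that had used Slc26a5. The shared protocol text speaks of picked inner hair cells, whereas titles and design name OHCs, which were followed. The labels tie no cell to an animal, so each genotype is 1 sample, none of the differences has a replicate check, and no p-value is given.

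JNKs are mitogen-activated protein kinases that respond to stress and injury. A cascade of MAP3Ks and MAP2Ks activates them by phosphorylating the threonine and the tyrosine of a Thr-Pro-Tyr motif in the activation loop, scaffold proteins hold the tiers together, and the transcription factor c-Jun is the best known substrate. Mapk8 and Mapk9 are transcribed widely, while Mapk10 is known mainly from brain, heart and testis. In the cochlea the pathway is known from studies of hair cell death after noise and aminoglycoside exposure.

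The 3 kinases are paralogs, so whether their reads can be told apart bears on every value below. The coding stretch around the activation loop is shown for that reason, 45 bases from the coding strand of the longest GENCODE M21 reading frame of each gene, with the Thr-Pro-Tyr codons in capitals.
Mapk8 (chr14:33392985-33393029, minus strand, exon 6 of 12): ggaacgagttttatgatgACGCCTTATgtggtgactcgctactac
Mapk9 (chr11:49872812-49872856, plus strand, exon 6 of 12): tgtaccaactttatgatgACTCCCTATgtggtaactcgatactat
Mapk10 (chr5:102989663-102989707, minus strand, exon 7 of 13): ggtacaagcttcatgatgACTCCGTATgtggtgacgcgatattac
Even in this conserved stretch Mapk10 differs from Mapk8 at 9 of 45 bases and from Mapk9 at 9. Over the aligned coding sequence, identity was 75.5% between Mapk10 and Mapk8 and 75.9% between Mapk10 and Mapk9. The longest run of bases shared by any of their annotated transcripts was 27 for Mapk10 and Mapk8 and 23 for Mapk10 and Mapk9. Of 11258 windows of 50 bases in Mapk10 transcripts, 0 occur in transcripts of Mapk8 or of Mapk9. Coordinates are GRCm38 throughout. Mapk8 lies at 33377898 to 33447158 of chromosome 14, Mapk9 at 49846751 to 49886421 of chromosome 11 and Mapk10 at 102907948 to 103211334 of chromosome 5, and none of their exons overlaps an exon of another annotated gene.

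The libraries held 8239671 to 15320549 counts per CKO cell and 7458126 to 17107710 per WT cell. At the median total, 1 count equals 0.0815 CPM (counts per 1000000) in CKO cells and 0.0868 CPM in WT cells. The OHC markers Slc26a5, Ocm, Ikzf2, Lbh, Strip2, Pou4f3 and Myo7a had a count in every cell, and Chrna10 in 17 of 17 CKO cells and 47 of 48 WT cells. Genotype went with sex, as 15 of 17 CKO cells and 9 of 48 WT cells had the Xist pattern. This means Xist at 10 counts or more and 4 Y-linked genes below 10 in sum. The reverse pattern (Y-linked genes at 10 or more, Xist below 10) was found in 0 CKO cells and 37 WT cells. WT cells 1 to 11, 12 to 45 and 46 to 48 had been set apart in earlier work on these data by the level of a mitochondrial transcript. The labels name no batch. Among WT cells the Xist pattern went with cell number, as 8 of the 9 cells with it are among cells 1 to 11. Subset values are given for the members, and for other genes where a 2-fold call was lost or turned. Casz1, the targeted gene, was counted in 15 of 17 CKO cells and 42 of 48 WT cells, at 46.2 CPM in CKO cells and 53.3 CPM in WT cells. Its log2 ratio was -0.88 against WT cells 1 to 11 but 0.19 and 0.17 against cells 12 to 45 and 46 to 48. Counts over the whole gene do not separate the floxed part, so they do not check the genotype, and every direction rests on the labels.

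Of the 9 members that were measured (at least 5 CPM in the higher genotype), 1 was at least 2-fold higher in CKO cells and 1 at least 2-fold lower. Mapk10 was the higher one and Mapk9 the lower one. Among all 10842 measured genes, 15.1% were at least 2-fold higher and 14.5% at least 2-fold lower, so 1 of 9 in either direction lies near the background. Among Xist-pattern cells 1 member was 2-fold higher (24.4% of measured genes) and 0 lower (19%). Against WT cells 1 to 11 the numbers were 1 higher (22.2%) and 1 lower (17.9%), and against cells 12 to 45 again 1 higher (17%) and 1 lower (15.9%). Against WT cells 46 to 48 they were 2 higher (33.9%), Mapk9 and Mapk10, and 1 lower (21.2%), Mapk8ip2. The median log2 ratio over the 9 members was -0.10, against 0.0092 over all measured genes. The other 7 measured members, from both MAP2Ks through the scaffolds to Map3k12, had log2 ratios from -0.47 to 0.50. Map3k5 had no count in any cell.

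**Figure D1:**
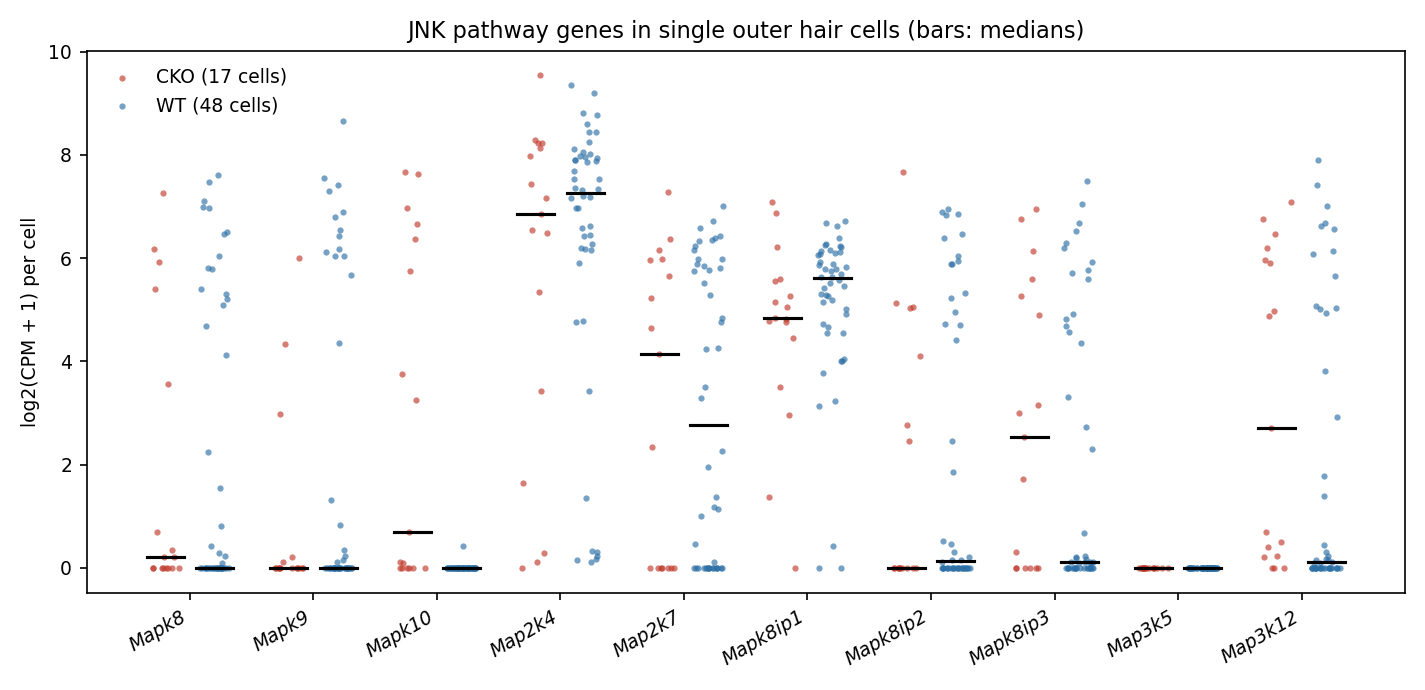
Each point is 1 cell, with log2(CPM + 1) on the vertical axis, CKO cells at left and WT cells at right for each gene, and bars at the medians. Mapk10 reached 203 CPM in CKO cells and at most 0.343 CPM in WT cells, whereas Map2k4 and Mapk8ip1 overlap widely between groups and Map3k5 stayed at 0.

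Mapk10, the gene of JNK3, was nearly absent from WT cells and abundant in part of the CKO cells. Per-cell values in CKO cells ran from 0 through a median of 0.621 to 203 CPM, against 0, 0 and 0.343 CPM in WT cells. Summed over cells, Mapk10 stood at 44.5 CPM in CKO cells (8888 counts, 95% interval 43.6 to 45.4) and at 0.0055 CPM in WT cells (3 counts, 0.0011 to 0.016). All WT counts came from cell 12. The log2 ratio was 12.99 (11.44 to 15.27). With so few WT counts its size is poorly fixed, and 3 of the 10842 measured genes, Mapk10 included, had a ratio at least as high. Near absence from WT cells was not particular to Mapk10, as 125 measured genes had 0 to 3 WT counts. Where the WT count was 0 it was set to 3, so those ratios are bounds. At least 1 count was found in 11 of 17 CKO cells (64.7%, exact interval 38.3% to 85.8%) and in 1 of 48 WT cells (2.08%, 0.0527% to 11.1%).

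The CKO cells were split in their Mapk10 level. Values of 203 CPM in CKO cell 16, 198 CPM in cell 7, 124 CPM in cell 1, 101 CPM in cell 12, 82.1 CPM in cell 3 and 53.0 CPM in cell 5 made up most of the total. Cells 17 and 2 followed with 12.4 and 8.55 CPM. Another 3 CKO cells, 11, 14 and 8, held 0.621, 0.0653 and 0.081 CPM, which is 8, 1 and 1 counts, and the remaining 6 had none. The 3 highest cells held 67.1% of the summed per-cell CPM. Thinning all cells to the lowest total left a count in 9 of 17 CKO cells and in 1 of 48 WT cells. Without each group's highest cell the log2 ratio was at least 12.70, as no WT count then remained and 3 were set. Leaving out each cell in turn kept it between 12.61 and 13.10. Removing WT cells could hardly move it, since the floor of 3 counts equals the WT counts found.

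The CKO cells with at least 10 Mapk10 counts resembled the others in depth. These 8 cells had a median total of 12128795 counts and 7757.5 genes, against 12269271 counts and 7217 genes in the other 9 CKO cells. The Xist pattern was found in 7 of 8 and 8 of 9 of them. Mapk10 is also known from neurons, so markers of neurons were set beside it. Of 9 neuron markers 6 had a count in CKO cells and 8 in WT cells, and their summed level ran from 134.9 to 1176 CPM in CKO cells and from 98.9 to 1433 CPM in WT cells. Rbfox3, Nefh and Elavl4 were at 0 in CKO cells and Prph in WT cells. The summed level of the 9 markers ran from 134.9 through a median of 501 to 1176 CPM in the 8 Mapk10-rich CKO cells and from 226 through 592 to 1070.1 CPM in the other CKO cells. Nefl stood at 63.7 CPM in the Mapk10-rich cells and 40.1 CPM in the other CKO cells. In the same order Nefm stood at 38.2 and 25.3 CPM, and Snap25 at 175 and 169 CPM. Tubb3 and Prph were each counted in 1 Mapk10-rich cell and 0 other CKO cells. Of the markers with a count, only Map2 was lower in the Mapk10-rich cells, at 251 CPM against 374 CPM. The part of neuronal RNA, sex or depth in the Mapk10 result was not tested beyond these values. Among Xist-pattern cells, Mapk10 was counted in 9 of 15 CKO cells, at 45.7 CPM in sum, and in 0 of 9 WT cells.

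The genes on either side of Mapk10 were within 2-fold between genotypes in summed level, but one differed in detection. Arhgap24, 10011 bases away at lower coordinates, stood at 5.91 CPM in CKO cells and 10.5 CPM in WT cells, yet it was counted in 10 of 17 CKO cells and 11 of 48 WT cells, 35.9 points higher in CKO cells. Ptpn13, 213858 bases away on the other side, stood at 53.3 CPM in CKO cells and 47.4 CPM in WT cells. The 250 bases upstream of the distal RefSeq start of Mapk10 (chr5:103211335-103211584, minus strand, GRCm38.p6) are shown because this gene carries the main difference. Capitals mark the only match to the cyclic AMP response element TGACGTCA, which ATF and CREB family factors bind.
Mapk10 upstream: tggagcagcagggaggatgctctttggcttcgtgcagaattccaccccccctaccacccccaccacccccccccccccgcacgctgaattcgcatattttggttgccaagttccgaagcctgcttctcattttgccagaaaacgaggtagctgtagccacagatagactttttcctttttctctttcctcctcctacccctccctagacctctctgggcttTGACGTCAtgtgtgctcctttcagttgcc
The match begins at -29 relative to the start, and it reads the same on both strands. Such a match occurs in 1.55% of 32851 upstream windows of the same length, and the AP-1 motif TGANTCA, searched on both strands, in 6.75%. Of the 10 members, 9 are in the promoter table with 14 windows, Mapk8ip1 being the missing entry. No other member window held TGACGTCA, and 1 window of Map2k7 held TGANTCA. These counts do not tell which start the cells used, and a match of letters is no binding site. The upstream window of Mapk10 had 54.8% G and C and 7 CpG, compared with 79.2% and 36 for the distal window of Mapk8, 63.6% and 14 for Mapk9, and medians of 52.4% and 6 over all windows.

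Mapk9, which encodes JNK2, was lower in CKO cells, though not against every subset of WT cells. It ran from 0 through a median of 0 to 63.4 CPM in CKO cells, against 0, 0 and 403 CPM in WT cells. The groups overlapped in their lower range, and 12 of 48 WT cells lay above the highest CKO cell. The summed level was 5.31 CPM in CKO cells (95% interval 5.00 to 5.64) and 32.3 CPM in WT cells (31.8 to 32.7), a log2 ratio of -2.60 (-2.69 to -2.51). A count was found in 5 of 17 CKO cells (29.4%, 10.3% to 55.96%) and in 20 of 48 WT cells (41.7%, 27.6% to 56.8%). Of the summed CKO level 70.6% lay in cell 15 alone, and without that cell the ratio was -4.09. Within WT cells Mapk9 was uneven too: it stood at 22.3 CPM in cells 1 to 11, 39.9 CPM in cells 12 to 45 and 0.248 CPM in cells 46 to 48. The ratio was -2.07 against the first of these runs, -2.91 against the next and 4.42, the other way, against the last. Among Xist-pattern cells it was -0.51, with 5.43 CPM in CKO cells and 7.70 CPM in WT cells.

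Mapk8, the gene of JNK1, had similar values in both genotypes. Its per-cell level ran from 0 through a median of 0.158 to 152 CPM in CKO cells, against 0, 0 and 195 CPM in WT cells. In sum it stood at 21.1 CPM in CKO cells (20.5 to 21.8) and 26.7 CPM in WT cells (26.2 to 27.1), a log2 ratio of -0.34 (-0.39 to -0.29). Detection was 9 of 17 CKO cells (52.9%) and 23 of 48 WT cells (47.9%). CKO cell 6 held 45.2% of the CKO level, and leaving it out moved the ratio to -1.18. Against the WT subsets the ratio stayed between -0.63 and -0.17.

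At 10 counts or more, few cells held more than 1 of the 3 kinases: 14 of 17 CKO cells held exactly 1 of the kinases, 1 held 2, 0 held 3 and 2 held none. In WT cells 25 of 48 held 1, 4 held 2, 0 held 3 and 19 held none. The CKO cell with a pair was cell 17, with Mapk8 and Mapk10, and cells 9 and 13 had none of the 3 even at 1 count. In all 4 WT cells with a pair it was Mapk8 and Mapk9. At least 1 kinase reached 10 counts in 88.2% of CKO cells (63.6% to 98.5%) and in 60.4% of WT cells (45.3% to 74.2%). These shares include Mapk10, whose difference was known beforehand and which reached 10 counts in 8 of 17 CKO cells and 0 of 48 WT cells. Mapk8 did so in 5 of 17 CKO cells and 18 of 48 WT cells, and Mapk9 in 3 of 17 and 15 of 48. At a threshold of 1 count, 2 kinases were found in 8 of 17 CKO cells and 10 of 48 WT cells, and all 3 in 1 CKO cell and 1 WT cell. Mapk10 correlated with Mapk8 at r = -0.41 and with Mapk9 at r = -0.36 over the 17 CKO cells, on log2(CPM + 1). All points share on-or-off detection, and the values are descriptive. How many pairs of kinases the detection shares alone would give was not tested.

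**Figure D2:**
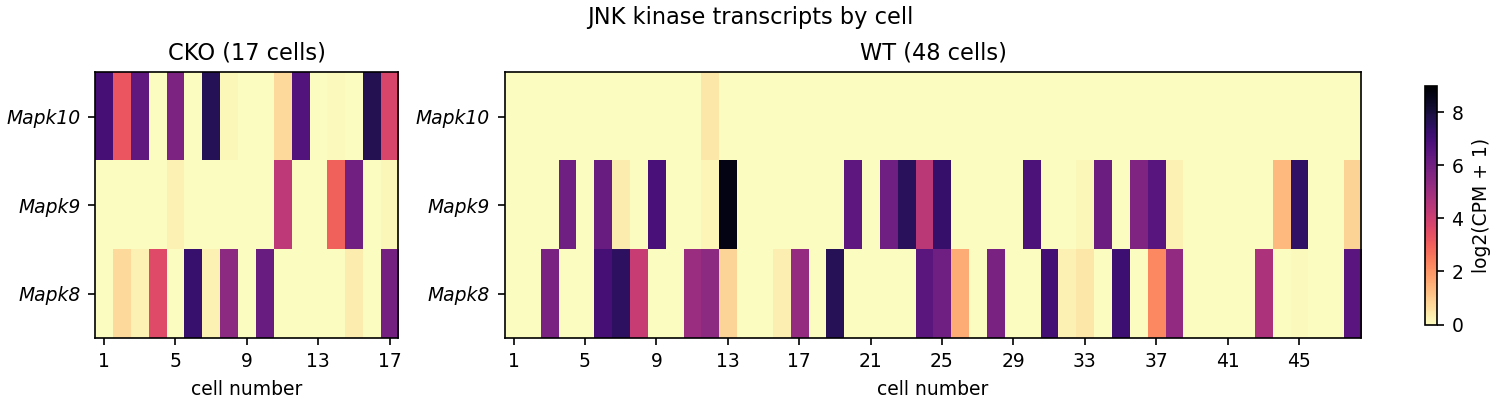
Columns are cells in the order of their numbers, CKO at left and WT at right, rows are the 3 kinases, and shade is log2(CPM + 1). Dark fields of Mapk10 appear in CKO cells only, and most columns hold at most 1 dark field.

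Scaled by exon length, the 3 kinases together stood at nearly the same level in both genotypes, but with different shares. Their sum was 6.63 CPM per kb of exon in CKO cells and 7.09 CPM per kb in WT cells. Mapk10 contributed 60.3% of this in CKO cells and 0.0069% in WT cells. Mapk9 contributed 11.8% in CKO cells and 67.1% in WT cells, and Mapk8 27.9% in CKO cells and 32.9% in WT cells. In levels per kb the order in CKO cells was Mapk10 at 4.00, Mapk8 at 1.85 and Mapk9 at 0.783, and in WT cells Mapk9 at 4.75, Mapk8 at 2.33 and Mapk10 at 0.00049. The near equality of the sums depended on the scaling, as without it they were 70.9 CPM in CKO cells and 58.9 CPM in WT cells. It also depended on the WT cells used. Among Xist-pattern cells the sum was 7.0 CPM per kb in CKO cells and 3.58 CPM per kb in WT cells, and WT cells 46 to 48 alone had 2.58.

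**Figure D3:**
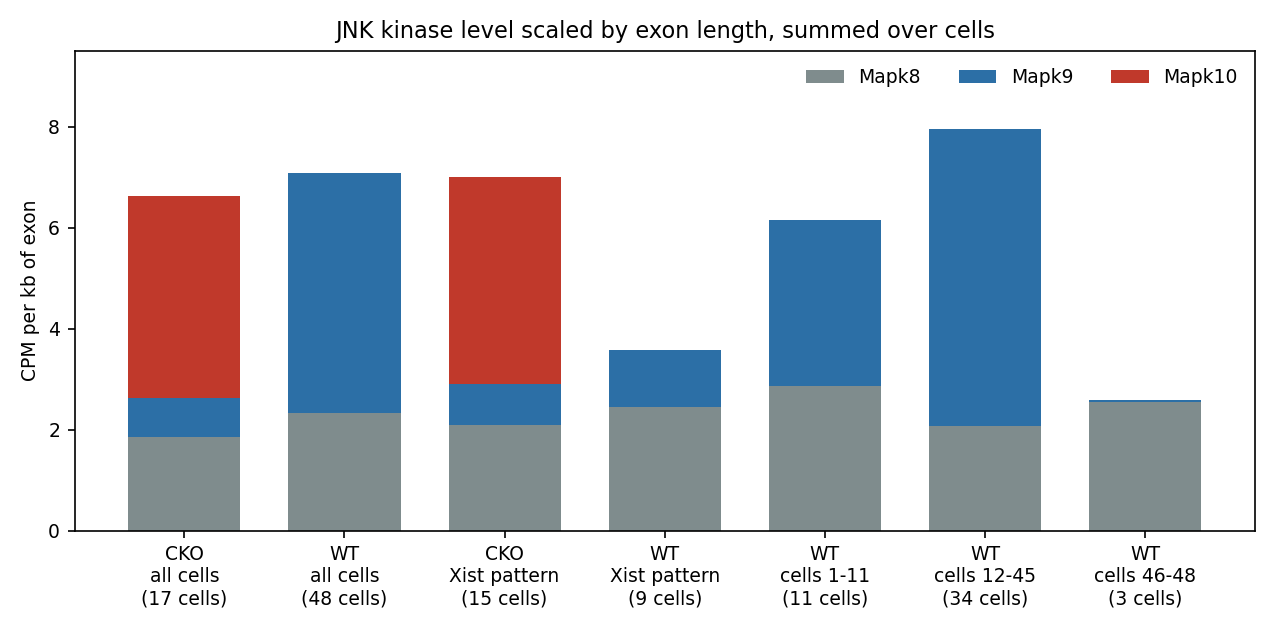
Bars give CPM per kb of exon, summed over the cells of each set and stacked by kinase. Mapk10 makes up 60.3% of the CKO bar over all cells, and Mapk9 makes up 67.1% of the WT bar but 1.42% in WT cells 46 to 48.

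The kinases that activate JNK were at like summed levels in both genotypes. Map2k4 was the most abundant member per length, at 35.04 CPM per kb in CKO cells and 37.6 CPM per kb in WT cells. Its per-cell level ran from 0 through a median of 114.6 to 744 CPM in CKO cells, against 0.0886, 153 and 651 CPM in WT cells. The groups overlapped, with 1 CKO cell above the highest WT cell. Sums were 163 CPM in CKO cells and 175 CPM in WT cells, a log2 ratio of -0.10 (-0.12 to -0.084). All 48 WT cells and 16 of 17 CKO cells had a count. Map2k7, which acts on the same kinases, ran from 0 through a median of 16.7 to 154 CPM in CKO cells, against 0, 6.29 and 128 CPM in WT cells. Its summed level was 31.2 CPM in CKO cells and 30.2 CPM in WT cells, with a log2 ratio of 0.047 that changed sign on leaving out any 1 of 6 CKO cells. At 10 counts or more, 17 of 17 CKO cells and 45 of 48 WT cells held at least 1 of this pair.

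Of the scaffolds, only Mapk8ip1 was counted in nearly every cell. Mapk8ip1, which encodes JIP1, had a count in 16 of 17 CKO cells and 46 of 48 WT cells. It ran from 0 through a median of 27.7 to 134.5 CPM in CKO cells, against 0, 47.8 and 104 CPM in WT cells. Sums were 39.3 CPM in CKO cells and 47.1 CPM in WT cells, a log2 ratio of -0.26 (-0.30 to -0.23), which was 0.25 against WT cells 46 to 48. Mapk8ip2, the gene of JIP2, was counted in 7 of 17 CKO cells and 25 of 48 WT cells. Its highest values were 204 CPM in CKO cells and 122 CPM in WT cells, with medians of 0 CPM in CKO cells and 0.0982 CPM in WT cells. In sum it stood at 15.4 CPM in CKO cells and 21.4 CPM in WT cells (log2 ratio -0.47). CKO cell 13, at 204 CPM, held 62.1% of the CKO level, and without it the ratio was -1.54.

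Mapk8ip3, whose product JIP3 links JNK to kinesin in axons, stood at 26.3 CPM in CKO cells and 20.3 CPM in WT cells (log2 ratio 0.37, 0.32 to 0.42). The ratio was -0.052 without CKO cell 11 and 0.0068 among Xist-pattern cells. A count was found in 11 of 17 CKO cells and 29 of 48 WT cells, with medians of 4.805 CPM in CKO cells and 0.0891 CPM in WT cells. Its exons overlap Mrps34 on the opposite strand by 971 bases and Eme2 on the same strand by 721, so some of its reads are uncertain. Mrps34 stood at 13.3 CPM in CKO cells and 15.6 CPM in WT cells.

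At the top of the cascade, 1 member was counted and 1 was not. Map3k5, the gene of the oxidative stress kinase ASK1, had 0 counts over 17 CKO cells and 48 WT cells. With 3 counts over a group as the floor, this allows up to 0.015 CPM in CKO cells and 0.0055 CPM in WT cells. Map3k12, which encodes DLK, the kinase of the axon injury response in neurons, was counted in both groups. It ran from 0 through a median of 5.51 to 136 CPM in CKO cells, against 0, 0.0817 and 237 CPM in WT cells. The summed level was 34.4 CPM in CKO cells (33.5 to 35.2) and 24.4 CPM in WT cells (23.9 to 24.8), a log2 ratio of 0.50 (0.45 to 0.54), which was -0.33 against WT cells 46 to 48.

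Map3k12 was also counted in more of the CKO cells. At least 1 count was found in 14 of 17 CKO cells (82.4%, 56.6% to 96.2%) and in 26 of 48 WT cells (54.2%, 39.2% to 68.6%), a difference of 28.2 percentage points. Together with Mapk10, with 62.6 points, it was 1 of 2 members with a share at least 25 points higher in CKO cells. Of all measured genes 3.12% were. The difference of Mapk10 was known when the members were chosen, and Mapk10 is measured through CKO cells only. The count of 2 is therefore not read as an excess. No member was as much lower (0 of 9, against 4.43% of measured genes). At 10 counts the shares were closer, 9 of 17 CKO cells and 17 of 48 WT cells. The exons of Map3k12 overlap those of Pcbp2 on the opposite strand by 1573 bases, and Pcbp2 stood at 87.6 CPM in CKO cells and 106 CPM in WT cells.

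**Figure D4:**
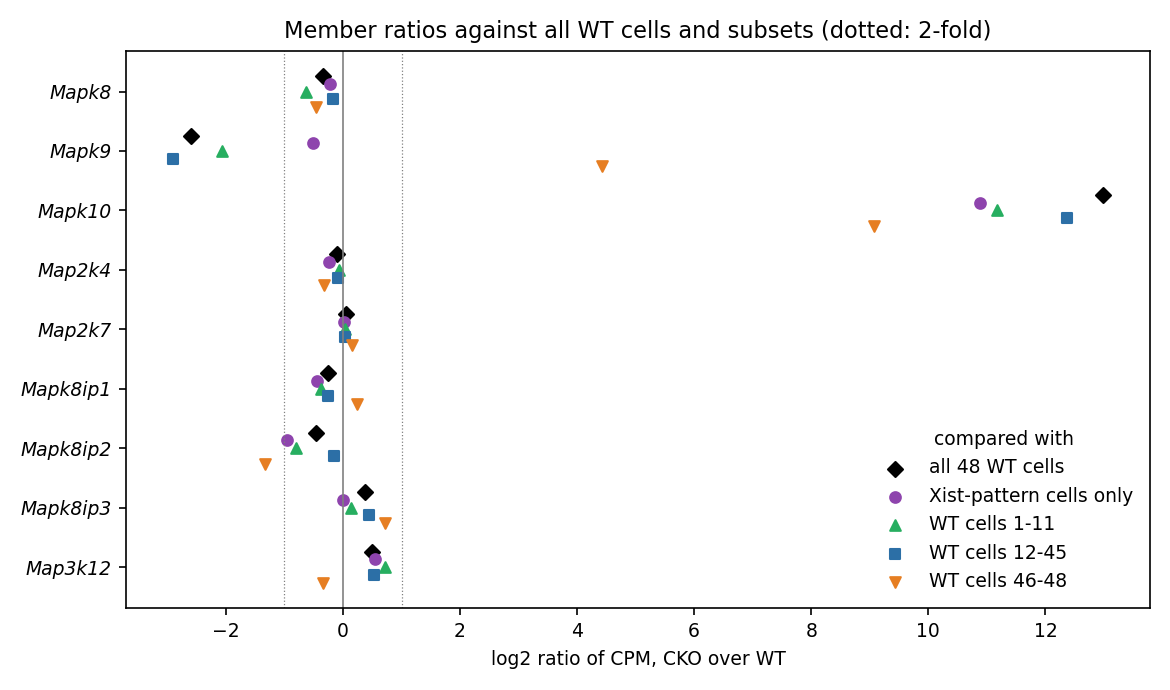
The horizontal axis is the log2 ratio of CPM, CKO over WT, for the 9 members with a count; symbols give the comparison with all WT cells and with 4 subsets. Mapk10 stays above 9 in every comparison, with WT counts of 0 set to 3 in 3 of them, while Mapk9 runs from -2.91 to 4.42.

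Taken cell by cell, most CKO cells held transcripts of the tiers around the kinases. A kinase, a MAP2K and a scaffold all reached 10 counts in 15 of 17 CKO cells and 27 of 48 WT cells. The kinase tier includes Mapk10, with 10 counts in 8 CKO cells and 0 WT cells. Counts with that tier thus carry the difference known when the members were chosen. A MAP2K and a scaffold, without regard to the kinases, both reached 10 counts in 17 of 17 CKO cells and 43 of 48 WT cells. With Map3k12 added to the 3 tiers the numbers were 7 of 17 CKO cells and 8 of 48 WT cells. Of the 10 members a median of 6 had a count in CKO cells and 5 in WT cells, with a range of 3 to 8 in both.

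The wider pathway was read from 10 further lists with 80 genes, of which 61 were measured. These lists, too, were chosen with earlier results of these data known, so their shares here and below are descriptions. Of these, 15 (24.6%) were at least 2-fold higher in CKO cells and 5 (8.20%) at least 2-fold lower, beside 15.1% and 14.5% of all measured genes. Their median log2 ratio was 0.20. Dusp16, Hrk, Bcl2l11, Bmf and Itch, below, were named after their values were seen. Against WT cells 46 to 48, 9 of the 15 higher genes were still past 2-fold, and Dusp8, Jun and Map3k4 were under it, and Dusp10, Map3k2 (-1.62) and Map4k4 (-0.23) had the other sign. Of the 5 lower genes, Traf2 and Map2k5 turned there to log2 ratios of at least 5.56 and 3.86, with 0 WT counts. Atf3, Map3k1 and Map3k4 were under 2-fold against WT cells 12 to 45 (0.63, 0.59 and 0.93), as was Traf2 (-0.96). Jun and Taok3 were under 2-fold among Xist-pattern cells, and these and Map4k4 (0.85) also against WT cells 1 to 11. Exons of Jun, Dusp1, Dusp8, Elk1, Map3k11 and Arrb2 overlap other annotated genes, so part of their reads is uncertain. Of 12 measured MAP3Ks outside the members, 5 were 2-fold higher and 0 lower. Map3k11, the gene of MLK3, stood at 10.4 CPM in CKO cells and 2.51 CPM in WT cells, and Taok3 at 55.5 CPM in CKO cells and 19.8 CPM in WT cells, but at 63.0 CPM in Xist-pattern CKO cells and 50.9 CPM in Xist-pattern WT cells. Map3k1 stood at 7.06 CPM in CKO cells, all from 1 cell, and 3.13 CPM in WT cells. Of 6 measured MAP4Ks, Tnik (6.42 CPM in CKO cells, 0.515 CPM in WT cells) and Map4k4 (30.6 CPM in CKO cells, 11.3 CPM in WT cells) were 2-fold higher. Tnik was counted in 3 CKO cells and 1 WT cell. Among further scaffolds Arrb2 stood at 9.32 CPM in CKO cells and 2.61 CPM in WT cells, from 3 cells in each group. Among partners of ASK1, Traf2 stood at 3.89 CPM in CKO cells, from 1 cell, and 12.5 CPM in WT cells.

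Of 9 listed phosphatases that switch MAP kinases off, 4 were measured. Among these 4, 3 were at least 2-fold higher in CKO cells, beside 15.1% of all measured genes. Dusp4 and Dusp9 had no count in any cell. Dusp10, whose product acts on JNK and p38, stood at 69.3 CPM in CKO cells and 23.3 CPM in WT cells, and was counted in 13 of 17 CKO cells and 21 of 48 WT cells. Dusp1 stood at 110.2 CPM in CKO cells and 41.3 CPM in WT cells. Dusp8, which also acts on JNK, stood at 134.8 CPM in CKO cells and 61.4 CPM in WT cells, with per-cell medians of 135 CPM in CKO cells and 48.7 CPM in WT cells. Dusp16 was at 23.3 CPM in CKO cells and 29.2 CPM in WT cells. Against WT cells 46 to 48 the log2 ratio of Dusp10 was -0.67 and that of Dusp8 0.23, while Dusp1 kept 2.50.

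Transcription factors downstream of JNK were higher in part. Of 10 measured, 3 were at least 2-fold higher and 0 were 2-fold lower, beside 15.1% and 14.5% of all measured genes. Their median log2 ratio was 0.87. Jun, the gene of c-Jun, stood at 1332 CPM in CKO cells and 636 CPM in WT cells. Its per-cell medians were 1124 CPM in CKO cells and 451 CPM in WT cells, with maxima of 4936 CPM in CKO cells and 2191 CPM in WT cells, and its log2 ratio of 1.07 was 0.55 among Xist-pattern cells. Elk1, an ETS factor, stood at 16.3 CPM in CKO cells and 2.56 CPM in WT cells, and Atf3 at 7.998 CPM in CKO cells and 3.49 CPM in WT cells. Atf3 was counted in 2 of 17 CKO cells and 6 of 48 WT cells.

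Of 7 measured targets of JNK in apoptosis, 0 were 2-fold higher and 0 were 2-fold lower, and their median log2 ratio was 0.026. With 7 genes, and 15.1% and 14.5% of all measured genes past 2-fold, such a count is close to the background. Bmf (-0.99) and Itch (-0.85) lay just under 2-fold lower, but both depended on the WT cells used. Among Xist-pattern cells Bmf was at 0.43 and Itch at 1.77, and against WT cells 1 to 11 at 0.60 and 1.73. Against WT cells 12 to 45 they were at -1.39 and -1.38, and against WT cells 46 to 48 at -0.50 and 0.90. Hrk, a BH3-only gene that c-Jun activates in neurons, stood at 34.7 CPM in CKO cells and 43.5 CPM in WT cells. Bcl2l11 had 0 counts in CKO cells and 1 in WT cells. Of 6 measured cytoskeletal targets 2 were at least 2-fold lower. Map1b, a microtubule-associated protein gene of growing axons, stood at 199.9 CPM in CKO cells and 467 CPM in WT cells, and its log2 ratio was -0.82 with WT cells 1 to 11 as the comparison and -0.85 within the Xist pattern. The gene of tau, Mapt, had 2 counts over the CKO cells and 6.41 CPM in WT cells, where 13 of 48 had a count. Among Xist-pattern cells Mapt was near 0 in both genotypes, at 0.0057 CPM in CKO cells and 0.024 CPM in WT cells. WT cells 46 to 48 had 0 CPM, and no ratio was formed in either subset.

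In the parallel MAP kinase arms, 3 of 9 measured genes passed 2-fold in either direction, near the 15.1% higher and 14.5% lower of all measured genes. Of 4 measured p38 genes, Mapk13 (7.16 CPM in CKO cells, 0.655 CPM in WT cells) was higher and Map2k3 (6.92 CPM in CKO cells, 24.7 CPM in WT cells) was lower. Mapk13 was counted in 2 cells of each group. Of 5 measured genes of the ERK arms only Map2k5 passed 2-fold, at 1.20 CPM in CKO cells and 16.3 CPM in WT cells.

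**Figure D5:**
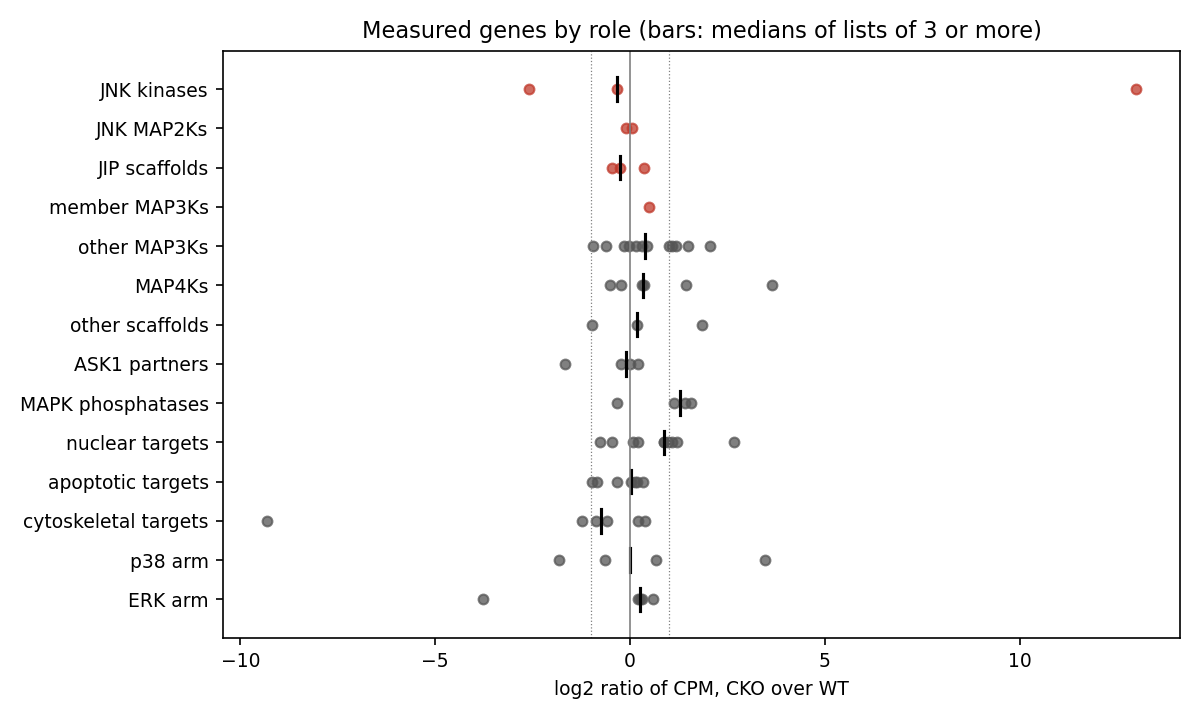
Points are measured genes, placed by role on the vertical axis and by the log2 ratio of CPM, CKO over WT, on the horizontal axis, with members in red and bars at the medians of lists with at least 3 measured genes. Phosphatases and nuclear targets have medians of 1.27 and 0.87, the other lists lie between -0.74 and 0.37.

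The genes whose per-cell pattern came closest to that of each kinase were named by Pearson's r of log2(CPM + 1). Over the 17 CKO cells and 10622 genes, Mapk10 was most like Nipa1 (r = 0.83), Snx12 (0.80), Lig4 (0.74), Mrpl9 (0.72) and Gpx4 (0.69). Nipa1, Snx12 and Lig4 each had a count in 7 of these cells. Over all 65 cells, centred within genotype, r was at most 0.51 for Mapk9 (Usp30, then Zbed4, Gm14018, Proz and Ivd) and at most 0.46 for Mapk8 (Trim67, then Rsrc1, Bap1, Akap1 and Gm26918). Each is the highest of 10622 or 10817 values over few cells and is given as a description.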

How the data were processed

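Raw counts per gene and cell were deposited by the authors as 1 table of 55292 gene symbols and 65 cells, and each column name matched the title of 1 sample. Per the submitters' processing notes, HISAT2 2.2.1, StringTie 2.2.1 and featureCounts 2.0.1 were used with the mm10 build. Which tool did what, the annotation, the strandedness and any filtering: not given in the sources used here. With strand unstated, reads from overlapping exons of opposite strands cannot be assigned.

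Cells of a genotype were treated as 1 sample, since the labels tie no cell to an animal, and no test was run. CPM is the count of a gene summed over a genotype's cells per 1000000 of all counts in those cells. Intervals at 95% are exact (Poisson for sums, conditional binomial for ratios, Clopper-Pearson for shares of cells) and cover counting error only, and since the libraries had no molecular identifiers, reads are not independent molecules. A group without a count was set to 3 counts, and its ratio is a bound. No ratio was formed with both groups at or under 3 counts. Genes at 5 CPM or more in either genotype were called measured. No cell was removed, doublets were not searched for, as each cell was picked by hand, and no pair of columns was identical (0 found). Ratios were tested on simulated data. Gene models and exon lengths came from GENCODE release M21 on GRCm38, which holds 53292 (96.4%) of the symbols, and promoters from RefSeq on GRCm38.p6.

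The 10 members and the other lists were chosen with earlier results of these data known. The named genes were all members, up to 3 genes per other list with the largest 2-fold or greater ratio, and the 5 genes most like Mapk8, Mapk9 and Mapk10 over cells among genes with a count in at least 20% of the cells used. Software was Python 3.11.15 with pandas 2.3.3, numpy 2.4.6, scipy 1.17.1 and Biopython 1.88, and R 4.3.3 with edgeR 4.0.16 and DESeq2 1.42.0, used for scaling factors only. Alternatives were other weights for cells, scaling factors, filters and subsets of cells, thinning of every cell to 7458126 counts, and leaving out each cell in turn.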

Additional observations from a re-analysis of the deposited data

How the results depend on the processing

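No paired analysis was possible because the replicate numbers are mere names of cells and the report runs no test. The Xist-pattern and run subsets were listed as alternatives with earlier results of these data known. Over leaving out each of 65 cells in turn, the count of members 2-fold higher stayed at 1, the count 2-fold lower was 1 to 2, the median log2 ratio of the members -0.27 to -0.0030, the Mapk10 log2 ratio 12.61 to 13.10, and its share of the length-scaled kinase level in CKO cells 52.4% to 69.6%. That second lower member was Mapk8 without CKO cell 6 and Mapk8ip2 without CKO cell 13. Without WT cell 12 no WT count of Mapk10 remained and 3 were set, the number found, so leaving out WT cells could hardly move its ratio. The median log2 ratio of the members was -0.14 with TMM factors (edgeR), -0.13 with median-of-ratios factors (DESeq2) and -0.13 without mitochondrially encoded and ribosomal protein genes in the total. It was -0.083 with the mean of per-cell CPM, -0.29 without the cell with most CPM of each gene, -0.22 in Xist-pattern cells, -0.075 against WT cells 1 to 11 and 0.16 against WT cells 46 to 48. With the median of per-cell CPM only 4 members had a value of at least 5 CPM and a ratio: Map2k4, Map2k7, Mapk8ip1 and Map3k12. Mapk10, with a median of 0.621 CPM in CKO cells, was not among them. Of the 4, 2 were 2-fold higher, Map2k7 (log2 ratio 1.41) and Map3k12 (6.08), and 0 were lower, with a median of 0.49. Without the cell with most CPM of each gene 3 members were 2-fold lower (Mapk8, Mapk9 and Mapk8ip2), and in Xist-pattern cells 0 were. Against WT cells 46 to 48, 2 were higher, since Mapk9 turned to 4.42. The Mapk10 log2 ratio was at least 10.88 in Xist-pattern cells, 11.17 against WT cells 1 to 11 and 9.07 against WT cells 46 to 48, where WT counts were 0. The Mapk10 share was 62.3% with the mean of per-cell CPM, 71.8% without the highest cell of each gene, 58.6% in Xist-pattern cells, 62.0% in thinned cells and 56.2% with the longest transcript as length. Apart from the reversals of Mapk9, Mapk8ip1 and Map3k12 against WT cells 46 to 48, of Map2k7 without its highest cells and on leaving out single cells, and of Mapk8ip3 without CKO cell 11, the members kept their sign. The causes were not tested. Depth limits mainly Mapk10 in WT cells and Map3k5 in both groups.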
